A study of Homo sapiens with 6 samples.

Results

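The transcripts of 10 chemokine genes were followed in bulk RNA sequencing of cells labelled as PANC-1, an established human line derived from a pancreatic ductal carcinoma. The genes were taken by symbol from the deposited table of 60623 genes, and all 10 were found. They are CXCL1, CXCL2, CXCL3, CXCL5, CXCL8, CXCL10 and CXCL16 of the CXC class, CCL2 and CCL20 of the CC class, and CX3CL1. The labels assign 3 libraries to a hairpin RNA that targets STN1 (shSTN1) and 3 to a control hairpin, with the genotype of the control given as WT. No source used here gives the vector or promoter of the hairpins, or whether the lines are clones. STN1, together with CTC1 and TEN1, forms the CST complex of telomere maintenance. The label for the genotype names STN2 in the second shSTN1 library and STN3 in the third, and the titles, which all name shSTN1, were used. The titles number the libraries as biological replicates, and no label ties them to separate cultures. The p-values hence rest on library-to-library spread that could be technical.

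Chemokines are small secreted proteins that bind G protein-coupled receptors and set the direction in which leukocytes migrate. CXCL1, CXCL2, CXCL3, CXCL5 and CXCL8 attract neutrophils through CXCR2, CXCL8 also through CXCR1. CCL2 attracts monocytes through CCR2, CCL20 attracts CCR6-bearing lymphocytes and dendritic cells, and CXCL10 attracts activated T cells through CXCR3. CXCL16 and CX3CL1 are made as membrane-anchored proteins and are released by the proteases ADAM10 and ADAM17. In carcinoma cells many of these genes are transcribed under the control of NF-kB, and their mRNAs are short-lived.

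Of the 10 genes, 7 have a promoter window in the RefSeq table used here (GRCh38.p14, from 250 bases before to 50 bases after the annotated start). CXCL16, CCL2 and CX3CL1 were not among them. The letters GGAATTTCC, the core of a classical NF-kB element, were searched on both strands. They stand in 6 of these 7 windows, all on chromosome 4, and in 0.461% of the 35116 windows of the table. A longer form, the same letters with a further G before them, stands in 4 of the 7, those of CXCL1, CXCL2, CXCL3 and CXCL5, and in 0.145% of all windows. Every match of the longer form is also a match of the shorter. The stretches around the match are shown 5′ to 3′ on the strand of each gene because the genes were compared for how far they moved together. Capitals mark the match, which is the reverse complement GGAAATTCC in CXCL10.
CXCL1 (chr4:73869275-73869368, plus strand): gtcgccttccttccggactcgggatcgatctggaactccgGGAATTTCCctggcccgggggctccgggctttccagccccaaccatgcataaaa
CXCL2 (chr4:74099219-74099312, minus strand): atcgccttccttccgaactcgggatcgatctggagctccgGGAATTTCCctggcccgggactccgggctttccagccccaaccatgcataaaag
CXCL3 (chr4:74038714-74038807, minus strand): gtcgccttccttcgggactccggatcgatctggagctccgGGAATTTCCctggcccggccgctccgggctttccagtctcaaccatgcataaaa
CXCL5 (chr4:73998714-73998807, minus strand): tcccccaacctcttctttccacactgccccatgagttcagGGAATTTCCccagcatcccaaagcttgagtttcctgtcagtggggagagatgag
CXCL8 (chr4:73740438-73740531, plus strand): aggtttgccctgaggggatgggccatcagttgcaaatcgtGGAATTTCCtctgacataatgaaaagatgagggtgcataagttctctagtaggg
CXCL10 (chr4:76023620-76023713, minus strand): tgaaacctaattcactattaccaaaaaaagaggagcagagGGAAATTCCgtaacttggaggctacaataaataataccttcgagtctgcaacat

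The match begins 78 bases before the start in CXCL1, 77 in CXCL2, 78 in CXCL3, 90 in CXCL5, 91 in CXCL8 and 176 in CXCL10. The windows of CXCL1, CXCL2 and CXCL3 are close copies of each other, with a longest shared run of 42 bases between CXCL1 and CXCL2, 37 between CXCL2 and CXCL3, and 25 between CXCL1 and CXCL3. CXCL5 and CXCL8 each share no more than 11 and 9 bases in a row with these 3. CCL20 holds neither form of the letters in its window. These matches describe the sequence and were not tested as binding sites.

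Total counts ran from 18813591 to 23336942 reads in the libraries labelled shSTN1 and from 17357223 to 20660453 in those labelled control. STN1 itself had 303, 306 and 275 reads in the libraries labelled shSTN1 and 387, 346 and 278 in those labelled control (log2 fold change -0.15, edgeR adjusted p = 0.253), so its mRNA does not separate the labels. CDKN2A, which PANC-1 is known to have lost, had 0 reads in the libraries labelled shSTN1 and 11753 in those labelled control, which goes against the cell line label of the control libraries. IRS4, an adaptor of insulin signalling, had 3 reads in the libraries labelled shSTN1 and 20505 in those labelled control. Of 18 markers of pancreatic carcinoma epithelium, 15 were tested and all 15 were higher in the libraries labelled shSTN1, where the list summed to 7400 to 7603 CPM (read counts scaled by TMM-adjusted library size), against 1210 to 1298 CPM in control. Among them, KRT7, named after its values were seen, passed the filter on low counts only through the libraries labelled shSTN1. Every difference below lies between libraries as labelled, and an effect of the hairpin and a difference between the cells of the groups cannot be told apart. Across the table, 74.1% of 17451 tested genes passed an edgeR adjusted p of 0.05 and 35.6% did so with a higher level in the libraries labelled shSTN1.

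All 5 neutrophil-attracting CXC genes were higher in the libraries labelled shSTN1, by 2.51-fold to 23.6-fold. In bulk RNA, more cells that express a gene and more RNA per cell cannot be told apart. CXCL1 (GROα) was the most abundant of them, with 86.3, 72.1 and 80.2 CPM in the libraries labelled shSTN1, against 9.1, 8.32 and 6.72 CPM in control. The groups were far apart, and the fold was 9.83 (log2 fold change 3.30, SE 0.149, edgeR adjusted p = 2.5e-23). CXCL8, which encodes interleukin-8, had 18.9, 14.9 and 15.9 CPM in the libraries labelled shSTN1 and 1.35, 1.92 and 0.867 CPM in control. It was 11.8-fold higher (log2 fold change 3.56, SE 0.324, edgeR adjusted p = 2.08e-17), again without overlap.

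CXCL5, also called ENA-78, had few reads in control and the highest fitted fold of the 9 tested genes. That rank turned on 1 library, since without the first control library CXCL5 stood at 4.54 and CCL20 at 4.72 on the log2 scale. It had 126, 90 and 69 reads in the libraries labelled shSTN1 and 4 in each control library, which is 6.15, 4.12 and 3.92 CPM against 0.193, 0.179 and 0.217 CPM. This amounts to 23.6-fold, or 4.56 on the log2 scale, with an edgeR adjusted p of 2.34e-13. The limma-voom interval ran from 3.43 to 5.41. The SE of 0.209 comes from log2 CPM (prior count 2), not from the edgeR fit. It reflects only the spread between libraries and can understate the counting error of 4 reads per control library. CXCL2 (GROβ) had 10.2, 6.41 and 8.57 CPM in the libraries labelled shSTN1 and 1.06, 0.984 and 1.84 CPM in control, a log2 fold change of 2.71 (SE 0.328, edgeR adjusted p = 2.66e-12). CXCL3 (GROγ) moved least of the 5. It had 3.96, 3.07 and 3.18 CPM in the libraries labelled shSTN1 and 1.01, 1.43 and 1.63 CPM in control, a log2 fold change of 1.33 (SE 0.22, edgeR adjusted p = 2.61e-05).

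CXCL1, CXCL2 and CXCL3 are recent copies of each other, and reads that fit several copies may have been lost or split. Of all windows of 50 bases along the longest transcript of each gene, 5.73% in CXCL1, 9.24% in CXCL2 and 5.26% in CXCL3 also occur in another of the CXC transcripts compared (CXCL1, CXCL2, CXCL3, CXCL5, CXCL6 and CXCL8). At 100 bases no window is shared by any of them. The read length is not given in the sources used here. The 5 genes together reached 101 to 125 CPM in the libraries labelled shSTN1 and 11.3 to 12.8 CPM in control. CXCL1 made up 68.8% to 71.7% of that sum in the libraries labelled shSTN1 and 59.6% to 71.6% in control, ranges that overlap.

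**Figure D1:**
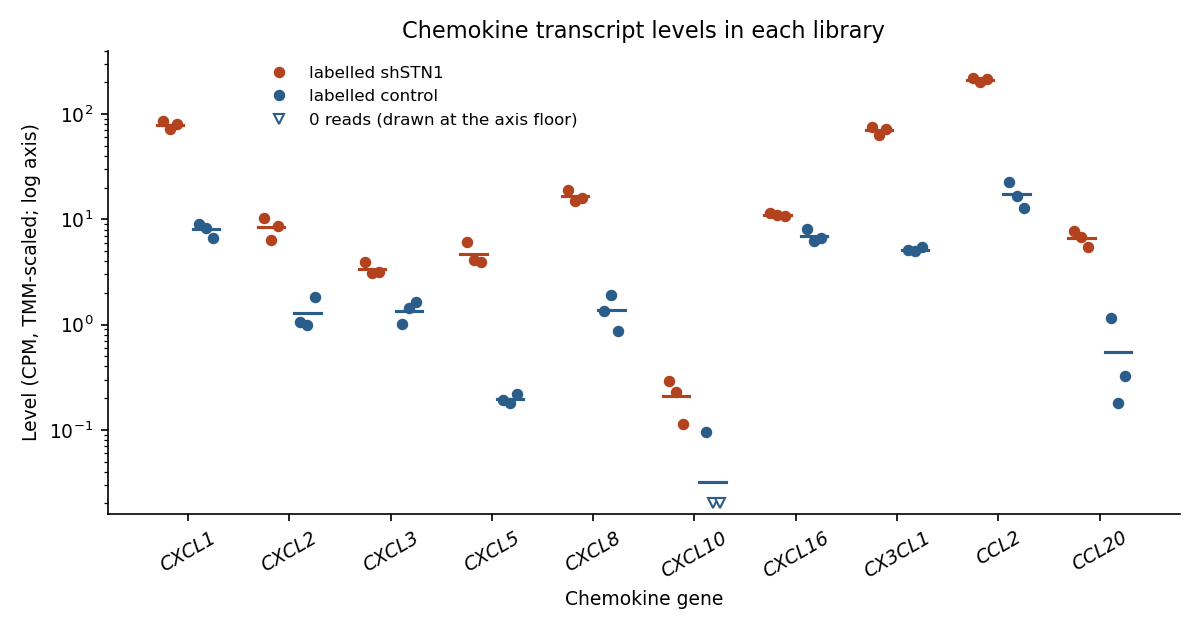
Level of each of the 10 chemokine genes in every library, in TMM-scaled CPM on a log axis. Points are libraries, short bars are group means (n = 3 each), and open triangles at the floor of the axis mark the 2 control libraries without a CXCL10 read. In each gene the 3 libraries labelled shSTN1 lie above the 3 labelled control, by the least in CXCL16 and CXCL10. In CXCL10 the nearest libraries of the groups hold 2 reads each (0.113 and 0.0963 CPM) and are set apart by scaling alone.

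CCL2 (MCP-1), the monocyte attractant, was the most abundant chemokine in both groups. It had 4556, 4395 and 3793 reads in the libraries labelled shSTN1 and 467, 371 and 239 in control. These correspond to 222, 201 and 215 CPM against 22.5, 16.6 and 12.9 CPM. The fold was 12.2 (log2 fold change 3.61, SE 0.233, edgeR adjusted p = 1.79e-16). The 3 libraries labelled shSTN1 lay close together, whereas the control libraries varied more relative to their mean (213 ± 10.7 CPM against 17.3 ± 4.81 CPM, SD, n = 3 each).

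CCL20 (MIP-3α), the ligand of CCR6, had 160, 147 and 97 reads in the libraries labelled shSTN1 and 24, 4 and 6 in control. The levels were 7.81, 6.73 and 5.50 CPM against 1.16, 0.179 and 0.325 CPM, and the groups did not overlap. The difference was 3.59 on the log2 scale, with an SE of 0.663 and an edgeR adjusted p of 5.58e-12. The first control library held most of the control reads, and without it the log2 fold change was 4.72.

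The membrane-anchored chemokines differed in size of change. CX3CL1 (fractalkine), which both tethers and attracts cells bearing CX3CR1, had 74.7, 63.4 and 71.7 CPM in the libraries labelled shSTN1 and 5.10, 4.97 and 5.42 CPM in control. Its fold was 13.6 (log2 fold change 3.76, SE 0.0793, edgeR adjusted p = 1.11e-24), and its spread among control libraries was small. CXCL16, the ligand of CXCR6 and a scavenger receptor for oxidised lipoprotein, had 11.6, 10.9 and 10.7 CPM in the libraries labelled shSTN1 and 8.09, 6.26 and 6.72 CPM in control. It was 1.58-fold higher (log2 fold change 0.66, SE 0.114, edgeR adjusted p = 1.09e-04), with all 3 libraries labelled shSTN1 above all control libraries. Of CXCL16's 2794 exon bases, 85 overlap MED11 on the opposite strand. MED11 moved the other way (-0.69), and the strand setting of the counting is not given in the sources used here.

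Of 14 sheddases and other proteases that cut or release chemokines, 12 were tested, of which 10 were higher and 1 lower in the libraries labelled shSTN1 (median log2 fold change 1.05, against -0.03 over all tested genes). The share called higher over all tested genes was 35.6%. ADAM17 had a log2 fold change of 0.58 (edgeR adjusted p = 2.27e-07) and ADAM10 one of 0.42 (edgeR adjusted p = 3.12e-05). PLAU, the urokinase activator of plasminogen, changed more (3.84), as did the collagenase gene MMP1 (4.69). MMP1 had 158, 174 and 132 reads in the libraries labelled shSTN1 and 6, 4 and 8 in control, and passed the filter on low counts only through the libraries labelled shSTN1. MMP9 and CTSS, also among the higher genes, passed it only through those libraries too. The gelatinase gene MMP2 stood at 1.19 and the cathepsin gene CTSB at 1.00. Of the other tested genes within 1 Mb, 8 of 10 around MMP1 were higher (median 1.11), 20 of 38 around PLAU were higher (median 0.38), and 12 of 18 around CTSB were lower (median -2.08). The part of these neighbourhoods in the values of the genes was not tested. DPP4, a membrane peptidase that trims the amino end of chemokines such as CXCL10, was lower. It had 1, 8 and 4 reads in the libraries labelled shSTN1 and 68, 72 and 49 in control (log2 fold change -3.78, edgeR adjusted p = 4.35e-10). DPP4 passed the filter on low counts only through the control libraries. ADAM10, ADAM17, MMP9, CTSS and DPP4 were named after their values were seen.

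CXCL10 (IP-10), the interferon-inducible T cell attractant, was close to absent from both groups. It had 6, 5 and 2 reads in the libraries labelled shSTN1 and 2, 0 and 0 in control, under the count filter, and was not tested. Pooled over libraries, 13 reads against 2 give a ratio of 6.68 with a 95% exact interval of 1.51 to 61.0, which covers counting error only. Without the filter on low counts its edgeR adjusted p was 0.125. The related ligands of CXCR3 were as scarce, with 2 CXCL11 reads in each group and no CXCL9 read in any library.

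Genes of the interferon pathway were nevertheless detected. All 18 genes of a list of interferon receptors, their STAT and IRF factors and nucleic acid sensors were tested, of which 11 were higher and 3 lower in the libraries labelled shSTN1 (median 0.85). Beside these counts, 35.6% of all tested genes were called higher and 38.5% lower. STAT3 (1.75), the sensor gene IFIH1 (2.88), IRF7 (2.21) and CGAS (2.58), the cytosolic DNA sensor, had the smallest adjusted p of the list. The 3 lower genes were TMEM173 (-0.85), IFNAR1 (-0.36) and IRF3 (-0.32), named after their values were seen. IRF1, an interferon-induced transcription factor, averaged 27.4 CPM in the libraries labelled shSTN1 and 9.78 CPM in control (log2 fold change 1.48), and was named after its values were seen. Around CGAS, 12 of the 13 other tested genes within 1 Mb were higher too (median 1.61), and around IRF7 43 of 60 were higher (median 0.82). The part of these neighbourhoods in the values of CGAS and IRF7 was not tested.

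**Figure D2:**
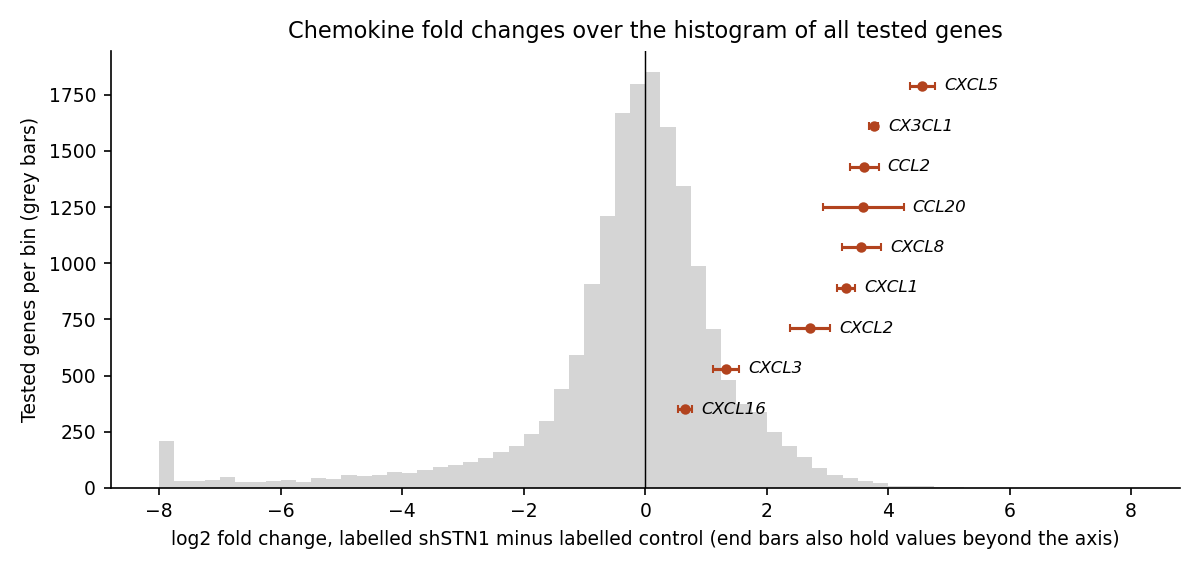
log2 fold change (labelled shSTN1 minus labelled control) of the 9 tested chemokine genes, as points with SE bars placed at arbitrary heights, over a grey histogram of all 17451 tested genes. CXCL16 lies above 75.7% of the tested genes and CXCL3 above 89.2%. The other 7 lie further out in the right tail, from 2.71 for CXCL2 to 4.56 for CXCL5. The bars come from log2 CPM (prior count 2), not from the edgeR fit, and can understate the counting error of CXCL5.

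Of the 9 tested members, 9 passed the edgeR adjusted p of 0.05 and all were higher in the libraries labelled shSTN1, where 35.6% of tested genes were called higher. At least 2-fold higher levels were found for 8 of them, against 15.7% of tested genes. The median of the 9 was 3.56, against -0.03 over all tested genes. CXCL5 and CCL20 passed the filter on low counts only through the libraries labelled shSTN1, so the counts and the median are given as a description. Among all tested genes, 75.7% had a lower log2 fold change than CXCL16, 89.2% than CXCL3 and 98.3% than CXCL2, and the other 6 members stood above 99.3% or more. The groups did not overlap for any of the 9 tested members. The same held for 75.6% of tested genes in either direction and for 36.6% with the higher level in the libraries labelled shSTN1. CXCL10, which was not tested, had 2 reads in its lowest library labelled shSTN1 and 2 in its highest control library. These 2 libraries are set apart by the scaling to CPM alone. The exact two-sided permutation test gave p = 0.1 for each of the 10 members, the smallest value that 3 libraries against 3 allow. For CXCL10 that value rests on the scaling.

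Levels were set side by side per kilobase of exon (RPKM from the TMM-scaled counts). In the libraries labelled shSTN1 CCL2 stood first at 107 ± 5.41 RPKM, followed by CXCL1 at 61.4 ± 5.51 and CX3CL1 at 11.7 ± 0.971 RPKM, and none of these 3 overlapped its neighbour. CXCL8, CXCL2, CCL20 and CXCL16 followed between 7.30 and 3.96 RPKM, each overlapping the next over libraries. CXCL5 (1.86 RPKM) and CXCL3 (1.53 RPKM) overlapped each other as well, and CXCL10 was last at 0.18 RPKM. In control, CCL2 (8.73 ± 2.42 RPKM) and CXCL1 (6.21 ± 0.936 RPKM) led but overlapped, and CXCL16 followed at 2.51 ± 0.339 RPKM. CX3CL1 and CXCL2, each at 0.863 RPKM, came next in control, then CXCL3 (0.611), CXCL8 (0.607), CCL20 (0.347), CXCL5 (0.0773) and CXCL10 (0.0273 RPKM). In control, CXCL2 overlapped CX3CL1, CXCL3, CXCL8 and CCL20 overlapped in turn, and CXCL5 overlapped CXCL10. Summed over the 10 genes, the libraries labelled shSTN1 held 383 to 442 CPM and the control libraries 36.7 to 49.6 CPM. CCL2 made up 50.3% to 52.5% of the sum in the libraries labelled shSTN1 and 35.3% to 45.3% in control.

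Along chromosome 4, the stretch from CXCL8 to CXCL2 (GRCh38, GENCODE 29, positions 73740506 to 74099293) holds 5 of the members. CXCL6, which lies between CXCL8 and CXCL1 and also attracts neutrophils, was the only other gene of the stretch that was tested. It had 71, 66 and 56 reads in the libraries labelled shSTN1 and 41, 31 and 24 in control (log2 fold change 1.05, edgeR adjusted p = 3.77e-04). The change was thus not even along the stretch, with CXCL6 at 1.05 and CXCL3 at 1.33 beside CXCL5 at 4.56 and CXCL1 at 3.30. The windows of CXCL5 and CXCL6 share a run of 45 bases, and both hold the GGAATTTCC letters. PPBP, a platelet chemokine gene of the same stretch, had no read in any library. PF4, another platelet chemokine gene, had 13 reads over the libraries labelled shSTN1 and 10 in control.

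Genes on either side did not all follow. Of the tested genes within 1 Mb of CXCL8 that are no members, 3 were higher, 3 lower and 1 not called in the libraries labelled shSTN1 (median -0.37). The 3 higher genes include CXCL6, which lies inside the stretch and not beside it. EREG (3.04) and AREG (2.59), which encode ligands of the EGF receptor, were higher beyond CXCL2, and MTHFD2L (-0.37) between them and CXCL2 was lower. ANKRD17 (-1.12) and COX18 (-0.81) on the other side were lower. Around CX3CL1 on chromosome 16, 11 of 38 tested neighbours were higher and 19 lower, and around CXCL16 on chromosome 17, 11 of 46 were higher and 20 lower. CCL2, on the same chromosome, had 4 of 10 higher and 2 lower, and CCL20 on chromosome 2 had 2 of 8 higher and 1 lower. Taken once each, the 123 neighbours of the members held 34 higher and 53 lower genes, with a median log2 fold change of -0.23. Over all tested genes, 35.6% were called higher and 38.5% lower, with a median of -0.03. The named genes outside the CXCL8 to CXCL2 stretch were chosen after their values were seen.

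**Figure D3:**
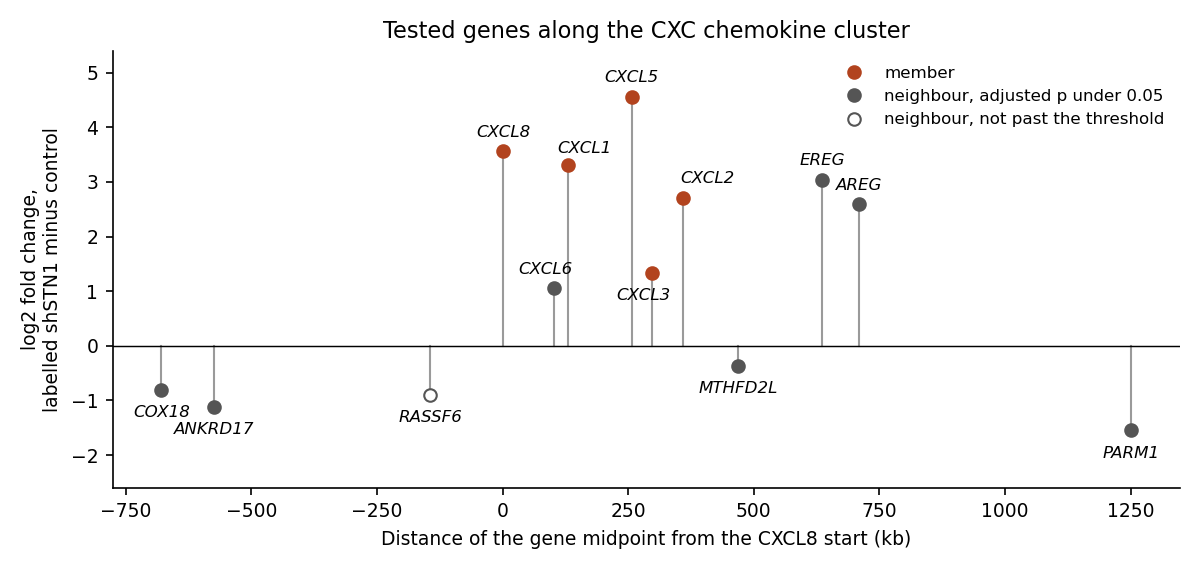
log2 fold change (labelled shSTN1 minus labelled control) of the tested genes along the CXC chemokine cluster, by distance of the gene midpoint from the start of CXCL8 in kilobases. Red points are the 5 members, filled grey points are neighbours past the adjusted p of 0.05, and the open point did not pass. The members and CXCL6 are all above 0 but uneven, and flanking genes lie on both sides of 0.

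Chemokine ligands beyond the 10 were mostly silent. Of 34 other ligand genes, 25 had 10 reads or fewer over all 6 libraries and 13 of these had none. The 4 that were tested all passed, 3 of them higher in the libraries labelled shSTN1 (median 1.29). Of all tested genes, 74.1% passed and 35.6% were called higher. CCL5 (RANTES), which attracts T cells and monocytes, had 309, 343 and 300 reads in the libraries labelled shSTN1 and 12, 35 and 29 in control, a log2 fold change of 3.68 (edgeR adjusted p = 3.59e-17). CCL28, a mucosal epithelial chemokine, stood at 4.28 CPM in the libraries labelled shSTN1 and 1.48 CPM in control (log2 fold change 1.54, edgeR adjusted p = 3.59e-06). CXCL12, the stromal ligand of CXCR4, went the other way, with 3, 0 and 2 reads in the libraries labelled shSTN1 and 24, 26 and 25 in control (log2 fold change -3.77, edgeR adjusted p = 9.14e-07). CXCL12 passed the filter on low counts only through the control libraries. Without the filter on low counts, 5 of these ligands were called higher and 2 lower. PF4V1 and CCL22 joined the higher genes, and XCL1 joined the lower ones with 0 reads in the libraries labelled shSTN1 and 22 in control.

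The receptors for these ligands were nearly without reads in both groups. Of 23 receptor genes, 15 had 10 reads or fewer over all libraries and 6 had none. CXCR1 and CCR2 had no read, CXCR2 had 1 read in each group, and CCR6 had 1 read in the libraries labelled shSTN1 and 0 in control. CX3CR1 had 4 reads in the libraries labelled shSTN1 and 8 in control. CXCR6 had 2, 4 and 5 reads in the libraries labelled shSTN1 and 1, 7 and 4 in control, and CXCR3 had no more than 2 reads in any library. CXCR4, the receptor of CXCL12, was detected at 5.75 CPM in the libraries labelled shSTN1 and 5.69 CPM in control. Its log2 fold change was 0.02 (limma-voom 95% interval -0.31 to 0.37, edgeR adjusted p = 0.915). CCR10, a receptor of CCL28, was lower, with 57, 51 and 35 reads in the libraries labelled shSTN1 and 80, 81 and 111 in control (log2 fold change -0.91, edgeR adjusted p = 6.25e-04). The receptors other than CCR10 were named after their values were seen.

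NF-kB, a dimeric transcription factor held in the cytoplasm by IkB inhibitors, is the shared activator of most of the members. All 22 genes of a list of its subunits, kinases and inhibitors were tested, of which 15 were higher and 4 lower in the libraries labelled shSTN1 (median 0.80). The shares over all tested genes were 35.6% higher and 38.5% lower. MAP3K14, the kinase that starts the non-canonical branch, stood at 88.3 CPM in the libraries labelled shSTN1 and 11.5 CPM in control (log2 fold change 2.94, edgeR adjusted p = 6.93e-24). RELB, the partner subunit of that branch, had a log2 fold change of 2.31, and the inhibitor genes NFKBIA and NFKBIB had 1.93 and 1.90. The subunit genes NFKB2 (1.44), RELA (0.76) and NFKB1 (0.72) were also higher, whereas REL did not pass (0.16, edgeR adjusted p = 0.43). IKBKB, which encodes the main kinase of the canonical branch, was lower (-1.22), as was the deubiquitinase gene CYLD (-0.74). NFKBIB lies on chromosome 19 where 52 of the 55 other tested genes within 1 Mb were higher (median 1.71). The part of that neighbourhood in its value was not tested. Around MAP3K14, 16 of 45 were higher and 21 lower. The members of this paragraph other than MAP3K14, RELB, NFKBIA and NFKBIB were named after their values were seen.

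Among cytokines that induce chemokines, the interleukin genes had few reads, TNF and LIF were higher in the libraries labelled shSTN1, and several receptors were higher too. IL1A had 2 reads in the libraries labelled shSTN1 and 1 in control. IL1B had 3 reads in the libraries labelled shSTN1 and 0 in control, and IL6 had 2 in the libraries labelled shSTN1 and 8 in control. TNF had 45, 27 and 36 reads in the libraries labelled shSTN1 and 3, 1 and 5 in control (log2 fold change 3.57, edgeR adjusted p = 1.04e-07), and passed the filter on low counts only through the libraries labelled shSTN1. LIF, a cytokine of the interleukin-6 family, was more abundant, with 2224, 2153 and 1794 reads in the libraries labelled shSTN1 and 241, 240 and 255 in control. Of 24 such cytokine, receptor and adaptor genes, 16 were tested, of which 11 were higher and 2 lower (median 0.84). For comparison, 35.6% of all tested genes were called higher and 38.5% lower. TNFRSF1B, the second TNF receptor, stood at 42.2 CPM in the libraries labelled shSTN1 and 3.97 CPM in control (3.40). LIF had the smallest adjusted p of the list (3.10), and OSMR (2.07), a receptor of oncostatin M, and the adaptor gene MYD88 (1.88) came after TNFRSF1B. IL1R1, the signalling receptor of interleukin-1, had a log2 fold change of 2.33, and its co-receptor gene IL1RAP one of -1.33. TNF, IL1R1 and IL1RAP were named after their values were seen.

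AP-1 and C/EBP factors bind beside NF-kB in the CXCL8 promoter. All 12 genes listed for these factors were tested, 7 being higher and 3 lower in the libraries labelled shSTN1 (median 0.76). Across all tested genes, 35.6% were called higher and 38.5% lower. FOSL1 stood at 314 CPM in the libraries labelled shSTN1 and 33.2 CPM in control (log2 fold change 3.24), and FOS (1.99) and FOSB (2.42) were higher as well. Around FOSL1, 59 of the 90 other tested genes within 1 Mb were higher (median 0.54). CEBPA was lower, at 3.42 CPM in the libraries labelled shSTN1 against 32.6 CPM in control (-3.25). ATF3 (-2.4) and JUND (-0.17) were lower as well, and JUN (0.0) and CEBPB (0.17) did not pass. ATF3, JUND, JUN and CEBPB were named after their values were seen. Of 11 factors that control the decay of AU-rich mRNAs, 5 were higher and 4 lower (median 0.05). ZFP36 (tristetraprolin), which speeds the decay of chemokine mRNAs, was the most changed, at 1192 CPM in the libraries labelled shSTN1 and 211 CPM in control (2.50). The endoribonuclease gene ZC3H12A had a log2 fold change of 1.28, and the decay factor genes KHSRP and HNRNPD had -0.75 and -0.73. ZFP36 lies on chromosome 19 where 55 of the 59 other tested genes within 1 Mb were higher (median 1.83). Around KHSRP, 24 of 35 were lower (median -0.77), and around HNRNPD 10 of 14 were lower (median -0.38). The part of these neighbourhoods in the values of ZFP36, KHSRP and HNRNPD was not tested.

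**Figure D4:**
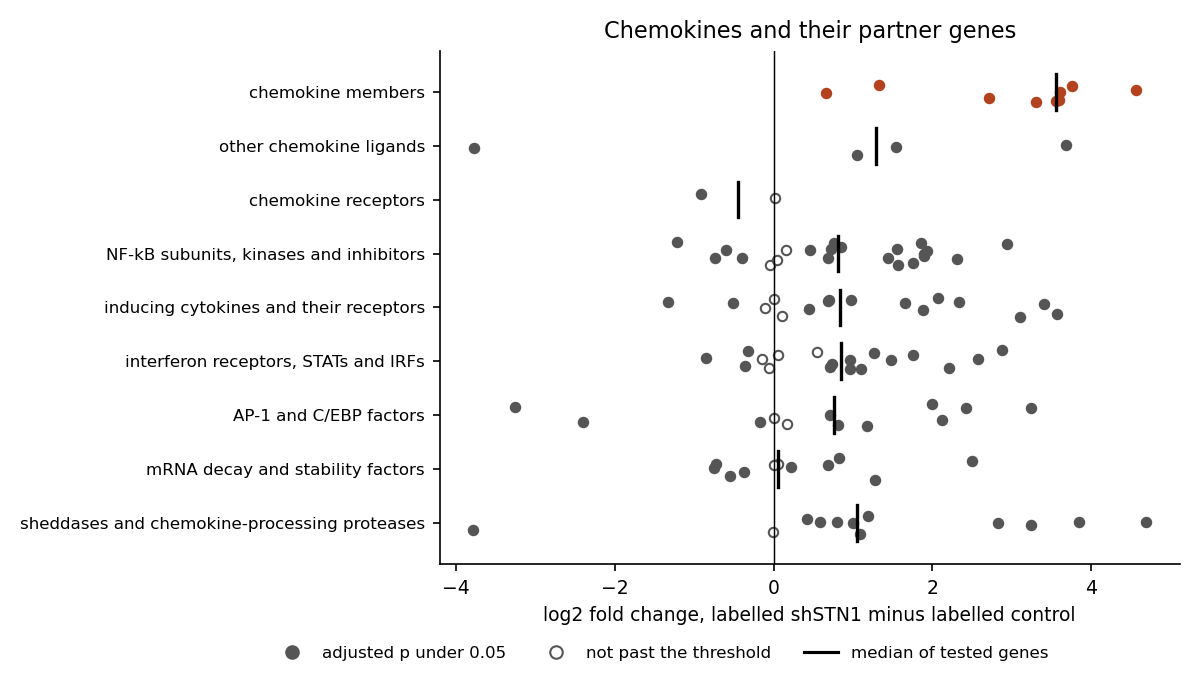
log2 fold change (labelled shSTN1 minus labelled control) of each tested gene in the chemokine set and in 8 lists of partner genes. Each point is a gene, filled where it passed the adjusted p of 0.05, and black bars are medians. The chemokines have a median of 3.56, the NF-kB, cytokine, interferon and AP-1 lists between 0.76 and 0.85, and the mRNA decay list 0.05.

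CCL2 had the highest mean level of the members, and the genes most like it in pattern were sought by the distance between log2 CPM profiles over the 6 libraries, each centred on its own mean. Among protein-coding genes that are no members, CD74 (distance 0.546), the invariant chain of MHC class II, was nearest. It was followed by NT5E (0.556), an ecto-nucleotidase, PLAU (0.570), CD34 (0.579), a cell surface sialomucin, and GGT5 (0.579), a gamma-glutamyl transferase. Of the members, CXCL1 was nearer to CCL2 (0.516) than any of these, CX3CL1 was at 0.633, CXCL8 at 0.709 and CXCL5 at 0.892. CCL20 (1.28), CXCL2 (1.73), CXCL3 (3.08) and CXCL16 (3.69) lay further away. With 3 libraries in each group, the distance mainly reflects the size of the group difference.

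Leukocytes, which make many chemokines, left few reads in these libraries. Of 15 leukocyte markers, CD3E, MS4A1, S100A8, S100A9 and FCGR3A had no read in any library, and PTPRC had 2 reads in the libraries labelled shSTN1 and 0 in control. The list summed to 19.9 to 22.7 CPM in the libraries labelled shSTN1 and 17.5 to 19.4 CPM in control. Most of it was CORO1A, with 381, 326 and 297 reads in the libraries labelled shSTN1 and 223, 257 and 255 in control. Of the 5 tested markers 2 were higher and 2 lower, among them ITGAM (3.68) and NKG7 (-1.95). ITGAM passed the filter on low counts only through the libraries labelled shSTN1, and NKG7 only through control. Endothelial markers summed to 10.4 to 11.3 CPM in the libraries labelled shSTN1 and 18.0 to 22.6 CPM in control, with PECAM1 and EMCN at 0 reads. Of the 5 tested, 2 were higher (ERG and ESAM) and 2 lower (FLT1 and CLDN5). Both lists stand beside shares of 35.6% higher and 38.5% lower over all tested genes. ERG passed the filter on low counts only through the libraries labelled shSTN1, and FLT1 and CLDN5 only through control.

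Fibroblast markers summed to 149 to 164 CPM in the libraries labelled shSTN1 and 67.6 to 81.6 CPM in control, nearly all of it COL1A1 and COL3A1. These 2 of the 4 tested markers were higher and the other 2 did not pass, and COL1A2, DCN and FAP had 6 reads or fewer over all libraries. Markers of embryonic kidney lines were lower in 13 of 14 tested cases, where 38.5% of all tested genes were called lower. They summed to 148 to 153 CPM in the libraries labelled shSTN1 and 1113 to 1271 CPM in control. IRS4, SALL1, EYA4, NEFL, NEFM, INA, SLIT2, CITED1 and HMX1 passed the filter on low counts only through the control libraries. SLIT2, SALL1, EYA4 and HMX1 had no read in the libraries labelled shSTN1, and PAX2 was higher there (1.37). SALL1, EYA4, INA, CITED1, HMX1 and PAX2 were named after their values were seen. The epithelial markers KRT8, KRT18 and KRT19 were higher in the libraries labelled shSTN1 (2.57, 2.65 and 2.49). These markers move with the chemokines between the same libraries, and their part in the chemokine values was not tested.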

How the data were processed

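The deposited table holds raw counts of reads per gene for 6 libraries. The submitters' processing notes name cutadapt, FastQC, STAR 2.7.2b, featureCounts 2.0.1 and GRCh38. Annotation release, strand setting and treatment of multi-mapping reads: not given in the sources used here. Per the labels' protocols, Trizol was used for total RNA and a NEBNext Ultra kit for the libraries. From the 60668 rows, 45 second copies of pseudoautosomal genes were left out. Coordinates and exon lengths came from GENCODE 29.

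Counts were fitted with edgeR 4.0.16 (filterByExpr, which kept genes at or above 0.497 CPM in at least 3 libraries, with TMM factors, robust quasi-likelihood test, no covariates), with Benjamini-Hochberg adjustment over 17451 genes. Log2 fold changes are shSTN1 minus control. SEs come from the group means of log2 CPM (prior count 2), not from the edgeR fit, and intervals from limma-voom (limma 3.58.1). The members and lists were chosen with earlier results of these data known. Each list gave up to 4 named genes by smallest adjusted p, or up to 2 where none passed. Some genes this rule names are not reported here. No pair of replicates agreed within sampling noise (chi-square over degrees of freedom, 2.88 to 8.06). Alternatives were RLE and upper-quartile factors, 2 other count filters, DESeq2 1.42.0, limma-voom, a replicate block and leaving out each library.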

Additional observations from a re-analysis of the deposited data

How the results depend on the processing

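The 9 tested members were called higher under each of the 13 alternatives, and 0 were lower. Their lowest and highest log2 fold changes were 3.18 and 3.38 for CXCL1, 2.53 and 3.01 for CXCL2, 1.14 and 1.45 for CXCL3, 4.33 and 4.68 for CXCL5, 3.32 and 3.87 for CXCL8, 0.56 and 0.76 for CXCL16, 3.44 and 3.83 for CCL2, 3.12 and 4.72 for CCL20, and 3.71 and 3.83 for CX3CL1. Over all genes, 12074 to 13901 were called under alternatives that kept all libraries, and 12586 to 12857 with 1 library left out. Without a filter on low counts the other ligands had 5 higher and 2 lower, and fibroblast markers 2 lower. With at least 1 CPM in 3 libraries, leukocyte and endothelial markers had 1 lower each, since fewer genes were tested. Over left-out libraries, leukocyte markers had 1 to 2 lower, fibroblast markers 1 to 3 higher and 0 to 1 lower. With the replicate block CXCL1 stood at 3.30 and 12742 genes were called, 12710 of them shared with the 12929 called without it. The labels do not tie the numbers to shared cultures, deviations of same-numbered libraries had correlations of -0.0123, 0.0171 and -0.0337, and the block changed no call of a member. CXCL10, with 13 reads in the libraries labelled shSTN1 and 2 in control, was too low for the filter, as were 30 of 34 other ligands and 21 of 23 receptors. Without the filter, the difference in CXCL10 was not detectable at this depth.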
